A study of Mus musculus with 9 samples.

Results

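The myeloid granule genes are a set of 8 named genes: Ms4a3, Ctsg, Mpo, Elane, Prtn3, Ngp, Camp and Cebpe. Ms4a3 and Ctsg were chosen by their log ratios, which were higher in the p63 knockout than in wild type on these same arrays, and the set was completed with genes that neutrophil precursors make too. The difference between knockout and wild type is therefore a description here and carries no test. Matching by gene name, synonym and accession found 1 probe for each of 7 of the 8 genes, among 41174 probes and 28104 gene names on the array. Cebpe was not matched and is not analysed here. Each of the 7 probes passed the filter on dim probes (a sample signal well above background on 2 arrays or more), as did 22655 genes in all.

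Neutrophils are built in bone marrow, and before birth in the liver, from precursors that load granules in waves. The first wave fills primary (azurophil) granules with myeloperoxidase and the serine proteases cathepsin G, neutrophil elastase and proteinase 3. A later wave fills secondary granules with cathelicidin and neutrophilic granule protein. The mRNAs of primary granule proteins belong to the precursors and are largely switched off in circulating neutrophils.

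Total RNA of the esophagus of newborn mice (postnatal day 0, background strain C57BL/6J) was measured in 3 genotypes. These were p63-/-;Cdx2 (n = 2, of 3 replicates that the labels count), p63-/- (n = 3) and wild type (n = 4). The series describes the first genotype as carrying Villin-Cdx2, a transgene named for the promoter of villin, a gene of intestinal epithelium, and all mice of the first and second genotype lack p63, the transcription factor of stratified squamous epithelium. The labels call the samples biological replicates and name epithelium as the cell type, while RNA was extracted from esophageal tissue. The labels do not say which part of Trp63 is deleted. Each array set a Cy5 sample against a Cy3 reference pool from 11 mouse cell lines, with no dye swap.

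Checks of the arrays set limits for what follows. Each genotype lay on a slide and scan of its own, so slide and genotype cannot be told apart. The brightest Trp63 probe had log2 ratios of 3.09 and 3.37 in p63-/-;Cdx2, 2.73 to 2.74 in p63-/- and 3.39 to 4.13 in wild type. The Cdx2 probe was dim on all 9 arrays, at the level of background. Krt14, the basal keratin of squamous epithelium, had log2 ratios of -1.48 and -1.23 in p63-/-;Cdx2, -1.16 to -0.99 in p63-/- and 1.02 to 1.31 in wild type. Of 14 measured genes of squamous epithelium 9 fell between p63-/- and wild type and none rose, where 0.269% of all genes fell and 0.0574% rose. One label of wild type replicate 4 names p63-/-, against its title and genotype, and its Krt14 ratio was the highest in wild type. Its ratio of Nnt, a gene with a known deletion in C57BL/6J, was -0.64, in the range of p63-/- (-0.67 to -0.49) and not of p63-/-;Cdx2 (0.34 and -0.01) or of the other wild type arrays (0.01 to 0.07). Wild type replicate 3 was the highest wild type array for all 7 granule genes in the sample channel, and the only wild type array of a male by its Xist ratio (p63-/- replicate 3 and p63-/-;Cdx2 replicate 2 were also male). Results are given with and without wild type replicates 3 and 4.

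The promoters of the granule genes were searched for short patterns, and none of the patterns was found in all of them. The table of promoters (250 bases before the start and 50 after it, RefSeq, GRCm38.p6) held 7 of the 8 genes. A few short patterns, picked for factors of granulocyte precursors after the sequences had been seen, were searched on both strands. AGGAAGT, a core bound by the ETS factor PU.1, was found in 4 of the 7, which are the 4 genes of primary granule enzymes, against 9.35% of 32851 promoters. Since the patterns were picked with the sequences in view, and Elane and Prtn3 are related neighbours, nothing is read from these counts. AGGAAGT stood 206 bases before the start in Ctsg, 223 in Mpo, 84 in Elane and 94 in Prtn3. These 4 promoters are shown with the pattern in capitals, 5′ to 3′ along the gene, and that of Ms4a3, which holds no match, is shown with them because Ms4a3 had the largest log-ratio difference.
Ctsg promoter, chr14:56102525-56102824, minus strand: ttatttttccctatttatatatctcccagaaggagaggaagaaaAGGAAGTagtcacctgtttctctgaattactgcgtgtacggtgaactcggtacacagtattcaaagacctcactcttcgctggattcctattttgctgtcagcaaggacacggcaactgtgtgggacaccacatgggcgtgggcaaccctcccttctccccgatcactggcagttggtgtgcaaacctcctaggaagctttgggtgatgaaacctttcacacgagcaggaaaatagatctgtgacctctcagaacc
Mpo promoter, chr11:87793534-87793833, plus strand: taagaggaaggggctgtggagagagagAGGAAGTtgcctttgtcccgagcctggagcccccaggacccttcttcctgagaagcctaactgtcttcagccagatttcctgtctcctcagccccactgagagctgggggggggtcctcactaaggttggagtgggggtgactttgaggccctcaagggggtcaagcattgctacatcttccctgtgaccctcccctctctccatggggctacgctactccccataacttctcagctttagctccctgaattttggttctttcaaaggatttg
Elane promoter, chr10:79886062-79886361, plus strand: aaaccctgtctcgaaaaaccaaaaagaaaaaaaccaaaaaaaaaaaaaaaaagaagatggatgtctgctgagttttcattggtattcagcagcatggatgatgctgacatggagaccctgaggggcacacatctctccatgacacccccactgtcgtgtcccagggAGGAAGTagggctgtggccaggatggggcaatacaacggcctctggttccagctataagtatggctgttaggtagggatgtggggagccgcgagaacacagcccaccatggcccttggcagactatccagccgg
Prtn3 promoter, chr10:79879417-79879716, plus strand: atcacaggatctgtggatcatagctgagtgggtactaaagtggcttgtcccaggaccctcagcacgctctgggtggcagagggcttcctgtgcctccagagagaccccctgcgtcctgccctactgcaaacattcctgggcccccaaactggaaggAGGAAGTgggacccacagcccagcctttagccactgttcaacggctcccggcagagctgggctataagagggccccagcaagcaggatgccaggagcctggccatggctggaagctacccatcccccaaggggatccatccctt
Ms4a3 promoter, chr19:11640802-11641101, minus strand: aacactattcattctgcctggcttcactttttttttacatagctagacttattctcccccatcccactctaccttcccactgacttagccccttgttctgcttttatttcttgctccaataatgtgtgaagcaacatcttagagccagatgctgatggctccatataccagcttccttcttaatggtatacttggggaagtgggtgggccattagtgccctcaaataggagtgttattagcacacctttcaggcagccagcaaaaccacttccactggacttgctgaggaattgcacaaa

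The other patterns were found in fewer of these promoters. TTGCNNAA, a core for C/EBP factors, matched in Ms4a3 (42 bases after the start) and Ngp (138 and 11 before it), against 10.8% of all promoters. AACGG, a core for MYB, matched in Elane (50 before) and Prtn3 (55 before), against 17.4% of all promoters. TGTGGT, a core for RUNX factors, matched in Ctsg alone (79 before), against 16.8%. No pattern matched in Camp. A match is a string of letters and shows no binding. Elane and Prtn3 are neighbours on chromosome 10, with Elane next to Cfd. Ctsg lies between Mcpt8 and Gzme, and Ms4a3 beside Ms4a2.

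Elane and Prtn3 encode related proteases, and their 60-base probes are shown because each stands for 1 of these relatives. The probes, which come from different places of the transcripts, agreed at 19 of 60 positions at the best of the ungapped shifts tried on either strand. Whether a probe also binds the mRNA of the other gene was not tested. The largest agreement between any pair of granule gene probes was 26 of 60. In build mm9 the Elane probe lies at 79350763 to 79350822 on chromosome 10, and the Prtn3 probe is spread over 79343869 to 79344685, a span of 817 bases that only spliced mRNA joins. The Ngp and Mpo probes are spread likewise over 549 and 776 bases.
Elane probe: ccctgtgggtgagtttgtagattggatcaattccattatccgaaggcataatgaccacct
Prtn3 probe: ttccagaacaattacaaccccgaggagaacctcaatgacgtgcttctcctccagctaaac

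Log2 ratios of sample over reference were higher on every p63-/- array than on every wild type array for all 7 genes. Across all genes, 5.93% (of 22612 with a value on all 9 arrays) had such a separation in this direction, but the choice of Ms4a3 and Ctsg came from this comparison and nothing is read from the count. The median difference of the 7 was 1.10 on the log2 scale, and it was 0.02 for all genes. It was 1.28 without wild type replicate 3, 1.24 without wild type replicate 4 and 0.76 without p63-/- replicate 1. With log ratios scaled to equal spread between arrays it was 0.39. In bulk tissue, fewer cells of a type and less RNA per cell cannot be told apart.

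Ms4a3 encodes a membrane protein of granulocyte and monocyte precursors. Its log2 ratios were 1.58 and 1.97 in p63-/-;Cdx2, 2.23, 2.10 and 2.20 in p63-/-, and 0.04, 0.15, 0.93 and 0.51 in wild type. The 3 p63-/- arrays lay within 0.13 of each other, the closest of them was more than 1 log2 unit above the highest wild type array, and both p63-/-;Cdx2 arrays lay between the other groups. The group means were 1.78 ± 0.28 (SD, n = 2), 2.18 ± 0.07 (SD, n = 3) and 0.41 ± 0.40 (SD, n = 4), a difference of 1.77 or 3.42-fold between p63-/- and wild type.

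Ctsg encodes cathepsin G, a serine protease of primary granules. Its log2 ratios were 3.06 and 2.98 in p63-/-;Cdx2, 3.89, 3.41 and 3.48 in p63-/-, and 1.47, 1.80, 2.08 and 2.05 in wild type. The groups did not overlap, and the gap between p63-/-;Cdx2 and the highest wild type array was wider than the range within either. The p63-/- mean was 3.59 ± 0.26 (SD, n = 3) and the wild type mean 1.85 ± 0.28 (SD, n = 4), a difference of 1.74 or 3.35-fold.

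Mpo encodes myeloperoxidase, which makes hypochlorous acid in the phagosome. Its log2 ratios were 3.47 and 2.95 in p63-/-;Cdx2, 3.72, 3.37 and 3.36 in p63-/-, and 1.67, 2.07, 2.99 and 2.78 in wild type. Here wild type spread widely: replicate 3 exceeded the lower p63-/-;Cdx2 array, replicate 4 lay just below it, and replicates 1 and 2 were lower still. The difference between p63-/- and wild type was 1.10, against a wild type SD of 0.61.

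Elane and Prtn3 encode neutrophil elastase and proteinase 3. Elane had log2 ratios of 0.86 and 0.64 in p63-/-;Cdx2, 1.06, 0.61 and 0.66 in p63-/-, and -0.06, 0.08, 0.22 and 0.46 in wild type. Prtn3 had 0.53 and 0.51 in p63-/-;Cdx2, 0.45, 0.44 and 0.64 in p63-/-, and 0.08, -0.02, 0.11 and 0.06 in wild type. Neither gene overlapped between wild type and the other groups, and both p63-/-;Cdx2 arrays lay inside the p63-/- range. The differences between p63-/- and wild type were 0.60 for Elane and 0.46 for Prtn3. Both probes were dim, and the offset of 50 added in background correction draws dim ratios towards 0. Elane was well above background on 2 of 4 wild type arrays and Prtn3 on 3 of 4.

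Camp and Ngp encode secondary granule proteins, the antimicrobial cathelicidin and the cystatin-related neutrophilic granule protein. Camp had log2 ratios of 2.79 and 2.92 in p63-/-;Cdx2, 4.18, 3.38 and 2.79 in p63-/-, and 1.71, 2.10, 2.78 and 2.70 in wild type. Ngp had 1.60 and 1.68 in p63-/-;Cdx2, 2.67, 2.18 and 1.71 in p63-/-, and 1.06, 1.42, 1.68 and 1.68 in wild type. Replicate 1 was the highest p63-/- array for both, and replicate 3 stood just above the highest wild type array. The range within p63-/- was 1.39 for Camp and 0.96 for Ngp, against 0.13 for Ms4a3. Without p63-/- replicate 1 the difference between p63-/- and wild type was 0.76 for Camp, against 1.13 with it, and 0.48 for Ngp, against 0.72 with it.

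**Figure D1:**
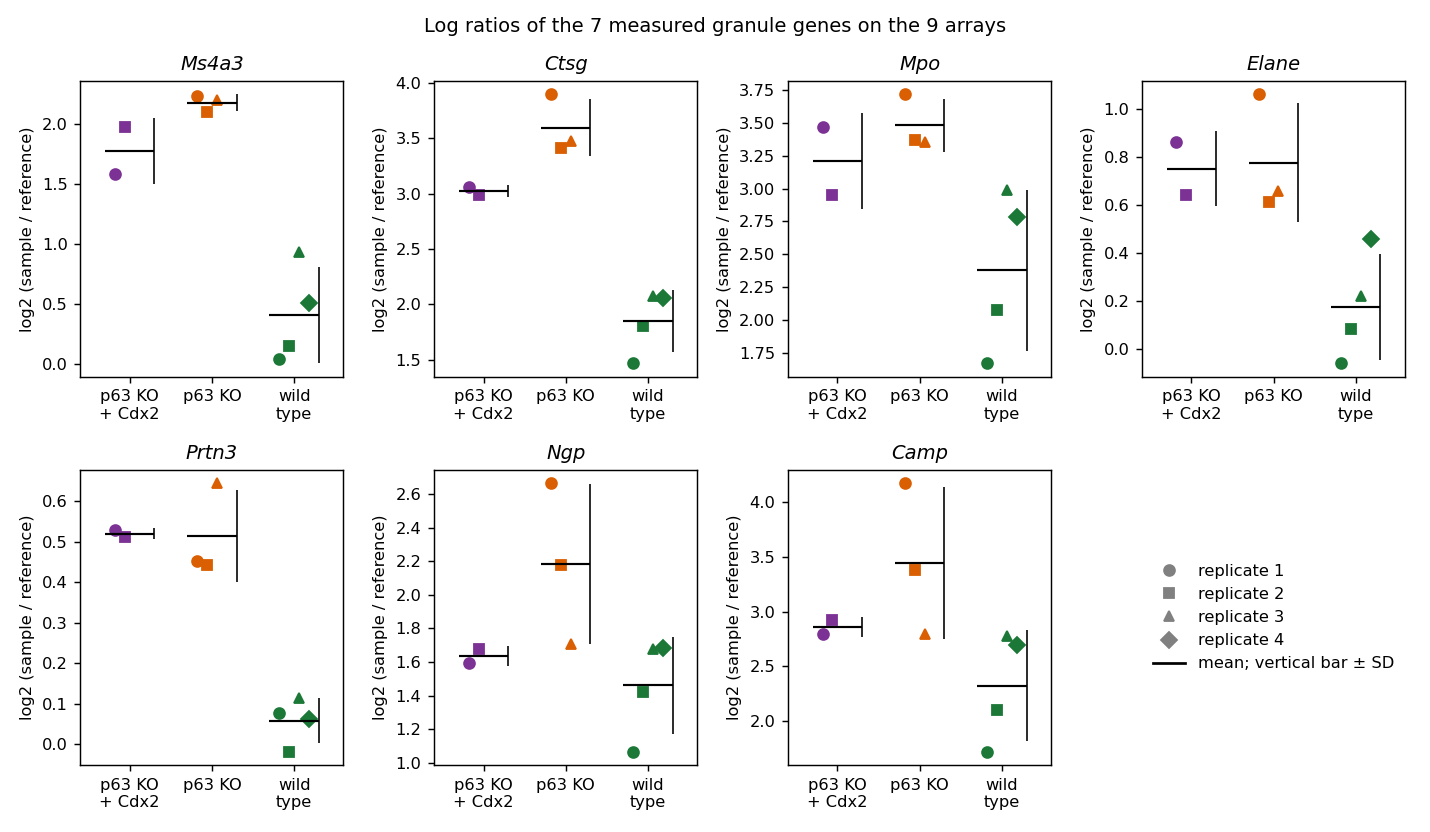
Log2 ratio of sample over reference (y axis) of each granule gene on the 9 arrays, by genotype (x axis), with points for replicates, a line for the mean and a bar for ± SD. Each gene has its own y scale. For all 7 genes every p63 KO (p63-/-) point lies above every wild type point, by little for Camp and Ngp, whose p63 KO points spread most.

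The granule genes followed each other to different degrees across the arrays. As a description over the 9 arrays, which include the genotype difference itself, Pearson's r of log ratios was 0.980 between Ngp and Camp and 0.969 between Ms4a3 and Ctsg, and 0.469 between Prtn3 and Ngp and 0.575 between Prtn3 and Camp. These are the 2 highest and the 2 lowest of the 21 pairs.

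The sample channel alone gave a partly different picture, because wild type replicate 3 stood high in it. Ms4a3 had log2 sample signals of 8.84 and 9.25 in p63-/-;Cdx2, 9.56, 9.46 and 9.68 in p63-/-, and 7.02, 7.18, 8.86 and 7.63 in wild type. Mpo had 11.80 and 11.32 in p63-/-;Cdx2, 12.51, 11.88 and 11.94 in p63-/-, and 9.20, 9.60, 12.12 and 10.45 in wild type. For Mpo wild type replicate 3 was higher than 2 of the 3 p63-/- arrays, and for Ms4a3 it reached the lower p63-/-;Cdx2 array but no p63-/- array.

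Camp and Ngp were likewise high on wild type replicate 3. Camp had log2 sample signals of 9.79 and 10.27 in p63-/-;Cdx2, 11.86, 10.61 and 10.07 in p63-/-, and 8.58, 9.14, 11.30 and 9.51 in wild type. Ngp had 8.65 and 9.51 in p63-/-;Cdx2, 11.27, 9.89 and 9.39 in p63-/-, and 7.99, 8.35, 10.25 and 8.59 in wild type. Ctsg, with 10.57 and 10.60 in p63-/-;Cdx2, 11.61, 11.03 and 11.14 in p63-/- and 8.30, 8.70, 10.40 and 9.01 in wild type, had replicate 3 raised but below all arrays without p63. Elane and Prtn3 did not overlap between p63-/- and wild type in the sample channel either, Elane by 7.18 in its lowest p63-/- array against 7.15 in wild type replicate 3.

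In the sample channel 4 of the 7 genes (Ms4a3, Ctsg, Elane and Prtn3) did not overlap between p63-/- and wild type, where 9.15% of all genes had this separation. Without wild type replicate 3 all 7 did not overlap, and 11.8% of all genes did not. Replicate 3 was singled out as the highest wild type array for all 7, so this share is no like measure. Nothing is read from the count without it. The median difference between p63-/- and wild type was 1.39 in the sample channel with all arrays, 1.87 without wild type replicate 3 and 1.32 without wild type replicate 4. Without p63-/- replicate 1 it was 0.85. Among all genes, replicate 3 was the highest wild type array in 22.7%, and it exceeded the next wild type array by at least 1 on the log2 scale in 0.911%.

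**Figure D2:**
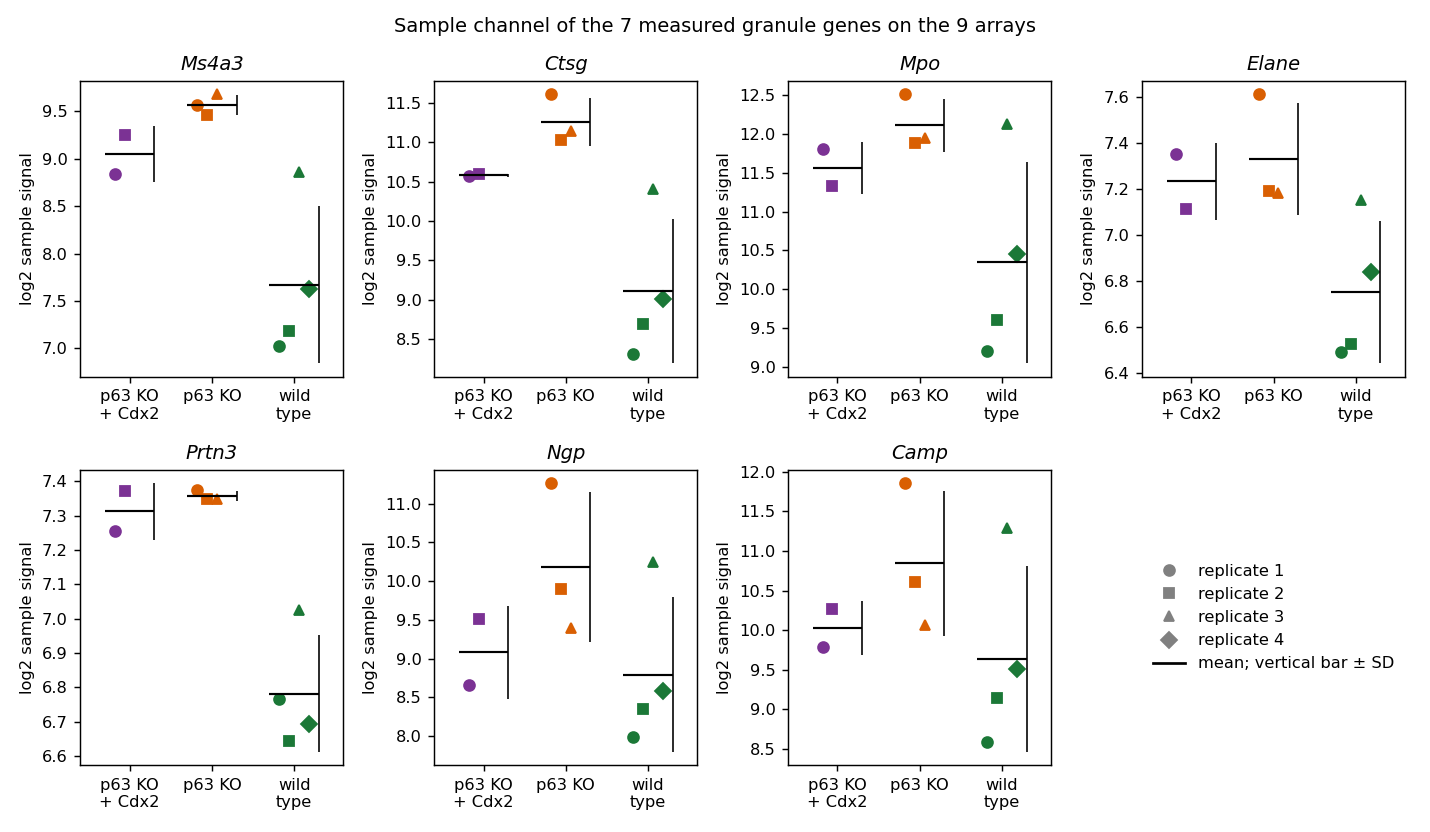
Log2 signal of the sample channel after normalization (y axis) of each granule gene on the 9 arrays, by genotype (x axis), drawn as for the log ratios. Wild type replicate 3 (triangle) is the highest wild type point in every panel and lies among the p63 KO (p63-/-) points for Mpo, Ngp and Camp.

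The reference channel, which holds the same RNA pool on every array, was not level for these probes. The net reference signal of Ngp was 48.8 and 109 intensity units in p63-/-;Cdx2, 276, 106 and 98.3 in p63-/-, and 43.1, 39.6, 139 and 39.6 in wild type. The arrays with a high sample signal, p63-/- replicate 1 and wild type replicate 3, also had the highest reference signal of Ngp. For Mpo the net reference signal was 204 and 186 in p63-/-;Cdx2, 324, 229 and 234 in p63-/-, and 89.7, 86.4, 236 and 112 in wild type. For Ms4a3 it was 60.9 to 62.9 in p63-/-;Cdx2, 72.6 to 83.8 in p63-/- and 46.8 to 62.5 in wild type. After normalization the reference signal of the 7 genes also differed between p63-/- and wild type. The median log2 difference was 0.12 with all arrays and 0.49 without wild type replicate 3. For p63-/-;Cdx2 against wild type it was 0.07 and 0.26. Between p63-/- and wild type all 7 overlapped with all arrays, and 6 of the 7 did not without that array. The share of all genes separated in this channel was not computed, and nothing is read from these counts. The loess log ratio divides by this channel, and the part of the reference channel in the differences was not tested.

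**Figure D3:**
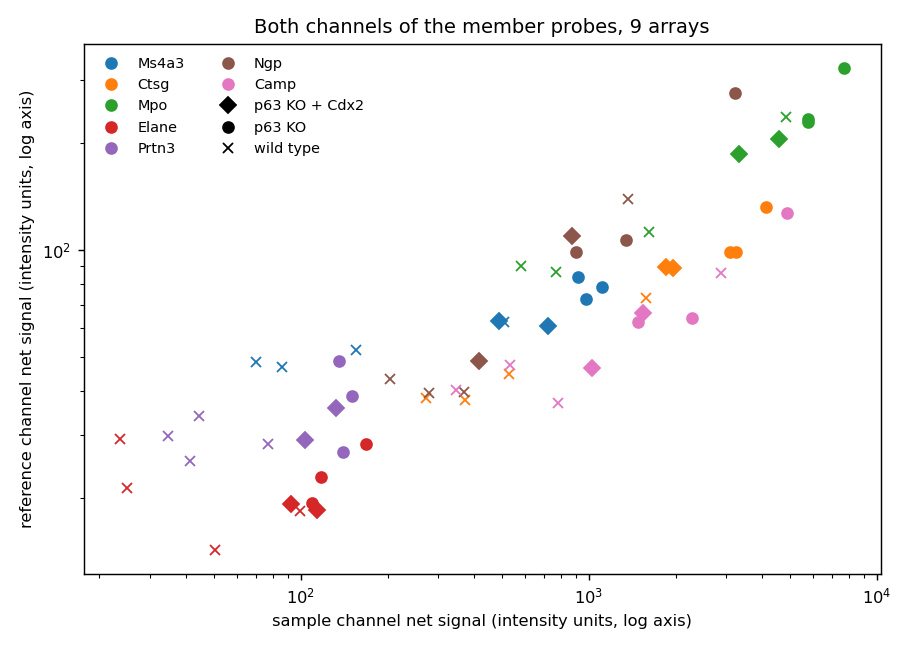
Net signal of the reference channel (y axis, log scale) against that of the sample channel (x axis, log scale), in intensity units, for the 7 granule gene probes (colours) on the 9 arrays, with diamonds for p63 KO + Cdx2 (p63-/-;Cdx2), circles for p63 KO (p63-/-) and crosses for wild type. For Ms4a3, Mpo, Ngp, Ctsg and Camp the reference signal is mostly higher on arrays with a higher sample signal, although the reference RNA is the same.

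The log ratio of the scanner software, made from its own background and dye correction, separated the groups least. In it 1 of the 7 genes (Ms4a3) did not overlap between p63-/- and wild type, where 4.77% of all genes did not. Without wild type replicate 3 this held for 4 of the 7 and for 6.82% of all genes. That array was singled out by its granule gene signals, so nothing is read from the count without it. The Ms4a3 software log2 ratio was 2.10 and 2.53 in p63-/-;Cdx2, 2.58, 2.51 and 2.62 in p63-/-, and -0.16, 0.18, 2.45 and 0.68 in wild type. Replicate 3 was thus within 0.1 of the lowest p63-/- array. Ngp was lower in p63-/- than in wild type by this measure, with a mean of 2.25 against 2.48, and lower too without replicate 3 (a difference of -0.17). The median difference of the 7 was 0.72, 0.99 without wild type replicate 3 and 0.70 without wild type replicate 4.

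**Figure D4:**
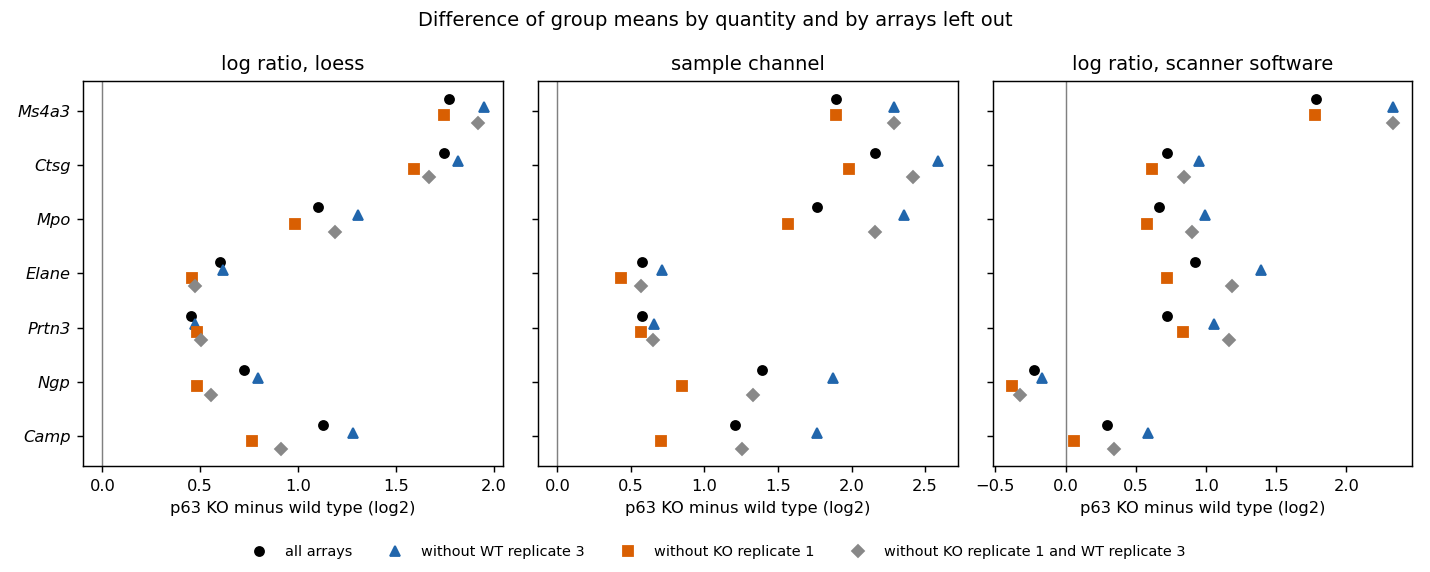
Difference of group means, p63 KO (p63-/-) minus wild type, on the log2 scale (x axis) for each granule gene (y axis), in the loess log ratio, the sample channel and the log ratio of the scanner software, with all arrays and with replicates left out. Differences are above 0 in the first and second panel, and Ngp is below 0 in the third.

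The comparison of p63-/-;Cdx2 with p63-/- set mice described as carrying the Cdx2 transgene against mice without it, both lacking p63. Their arrays lay on different slides, so transgene and slide cannot be told apart, and the Cdx2 probe was dim on all of them. This comparison is the only one of the granule genes tested here, and it shares the p63-/- arrays with the one that chose Ms4a3 and Ctsg. Choosing these 2 genes for high ratios on those arrays favours a fall here. Their p-values and intervals are therefore not those of genes chosen without these data. None of the 7 genes passed (limma over 22655 genes, Benjamini-Hochberg adjusted p under 0.05), and neither did any other gene (0% called), although 11.4% of all genes had an unadjusted p under 0.05. The lowest p was that of Ctsg, whose log2 difference was -0.57 (SE 0.21, 95% interval -1.05 to -0.10, limma, unadjusted p = 0.023, adjusted p = 0.389). Both p63-/-;Cdx2 arrays were below all p63-/- arrays for Ctsg, and so they were for Ms4a3 and Ngp, where 18% of all genes had this separation downward. The differences were -0.40 for Ms4a3 (interval -0.97 to 0.17, limma adjusted p = 0.562) and -0.55 for Ngp (interval -1.18 to 0.09, limma adjusted p = 0.481). For Elane and Prtn3 the intervals were -0.45 to 0.40 and -0.20 to 0.21, and for Mpo and Camp -1.13 to 0.58 and -1.56 to 0.38. Several differences turned on 1 array. That of Ms4a3 was -0.21 without p63-/-;Cdx2 replicate 1 and -0.59 without p63-/-;Cdx2 replicate 2, and that of Mpo was -0.53 and -0.01 without the same arrays. That of Ngp was -0.31 without p63-/- replicate 1 and -0.78 without p63-/- replicate 3, and that of Camp was -0.23 and -0.92 without the same arrays. These intervals leave room for changes of more than 1 log2 unit downward in Camp, Mpo, Ngp and Ctsg, so the genes are not shown to be alike in both genotypes.

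Set beside wild type, with the wild type arrays shared, p63-/-;Cdx2 had higher mean log ratios for all 7 genes, with a median difference of 0.58. It was 0.69 without wild type replicate 3 and 0.67 without wild type replicate 4. The largest were 1.37 for Ms4a3 and 1.17 for Ctsg, and the smallest was 0.18 for Ngp, which was 0.04 without wild type replicate 1 and 0.25 without wild type replicate 4. In 5 of the 7 genes the arrays did not overlap, where 13.9% of all genes had this separation upward, and Mpo and Ngp were the exceptions. In the sample channel 2 of 7 (Ctsg and Prtn3) did not overlap, against 16.8% of all genes. Without wild type replicate 3 this held for 7 of 7 and for 20.5% of all genes. Nothing is read from that count, since replicate 3 was singled out by its granule gene signals.

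Other genes of the neutrophil granules were less uniform. Of 28 measured genes of secondary and tertiary granules, Anxa1 passed between p63-/- and wild type and fell, by 1.49 on the log2 scale (limma adjusted p = 0.0359), where 0.269% of all genes fell and 0.0574% rose. Anxa1 encodes annexin A1, which squamous epithelium also makes. Of the 28, 22 had a higher mean in p63-/-, with a median difference of 0.28, and over all genes 56.3% were higher. Stfa2l1, a stefin of neutrophils, had a difference of 1.31 (limma adjusted p = 0.0818). Of 11 measured genes of primary granules none passed, and their median difference was 0.05. Srgn, the proteoglycan core that holds proteases in the granule, had a difference of 0.79 (limma adjusted p = 0.522), and Ctsc, the protease that activates them, 0.44 (limma adjusted p = 0.515).

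Prss57, named after its values were seen, encodes a further serine protease of neutrophil granules. Its log2 ratios were 0.26 and 2.27 in p63-/-;Cdx2, 1.03, 1.11 and 0.80 in p63-/-, and -0.29, -0.23, 0.14 and -0.01 in wild type. No array without p63 overlapped wild type, and p63-/-;Cdx2 replicate 2 was far above replicate 1, unlike the granule genes themselves. Neighbours in the genome differed among themselves. Mcpt8, a basophil protease gene beside Ctsg, had log2 ratios of 0.38 and 0.51 in p63-/-;Cdx2, 0.45, 0.71 and 0.48 in p63-/-, and -0.15, -0.32, 0.06 and -0.26 in wild type, without overlap, and the difference of 0.72 between p63-/- and wild type did not pass (limma adjusted p = 0.0536). Ms4a2, the IgE receptor subunit beside Ms4a3, ranged from -0.10 to 0.19 over all 9 arrays, with its highest value in p63-/-;Cdx2 replicate 2. Of 12 measured genes of the Ms4a family none passed, with a median difference of 0.14.

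Factors and receptors that drive granulocyte formation did not pass in log ratio. Of 21 measured, 13 were higher in p63-/- than in wild type, with a median difference of 0.23. Over all genes 56.3% were higher. In the sample channel Il3ra passed between these groups (difference 0.71, limma adjusted p = 0.00572), where its log ratio differed by 0.05. Also in the sample channel, 1 of the 21, not named here, passed downward between p63-/-;Cdx2 and p63-/-. Over all genes more passed in the sample channel than in log ratio in both comparisons. Those counts are given with the processing settings below, and nothing is read from these calls. Csf3r, the receptor of granulocyte colony-stimulating factor, had log2 ratios of 0.62 and 0.65 in p63-/-;Cdx2, 1.62, 0.64 and 0.84 in p63-/-, and 0.39, 0.62, 0.20 and 0.38 in wild type. The p63-/- arrays were just above wild type, and replicate 1 led them, as it did for Camp and Ngp. Igsf6 had a difference of 0.52 (limma adjusted p = 0.399).

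Markers of other blood cells mostly had higher means in p63-/- too, as did 56.3% of all genes. All 16 pan-leukocyte genes had higher means in p63-/- than in wild type, with a median of 0.37 and none past the test. The log2 of their summed sample signal was 14.76 to 16.11 in p63-/-;Cdx2, 15.26 to 15.59 in p63-/- and 14.96 to 15.10 in wild type. All 15 lymphoid genes were higher, with a median of 0.77. Of these Igll1, the surrogate light chain of precursor B cells, rose by 0.79 (limma adjusted p = 0.0237), and Vpreb1, its partner, had a difference of 1.36 (limma adjusted p = 0.0597). Clec1b, the platelet podoplanin receptor, rose by 1.06 (limma adjusted p = 0.0471). Anxa1, Igll1 and Clec1b were the 3 genes called among 200 measured genes of the blood and tissue lists, where 0.327% of all genes were called in either direction. That count was 0 without p63-/- replicate 1, 2 or 3 or wild type replicate 1 or 2, 1 without wild type replicate 4 and 5 without wild type replicate 3. With either p63-/-;Cdx2 array left out it was 11.

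Of the 19 macrophage genes 14 were higher in p63-/-, where 56.3% of all genes were, and none passed, with a median of 0.14. Their summed sample signals (log2) were 15.01 to 15.67 in p63-/-;Cdx2, 15.57 to 15.92 in p63-/- and 15.47 to 15.81 in wild type. Erythroid genes had a median of 0.05 between p63-/- and wild type, mast cell and basophil genes 0.32, eosinophil genes 0.33, platelet genes 0.21 and progenitor genes 0.01. In the remaining lists, where no gene passed, the medians were 0.32 for the chymase and granzyme locus, 0.17 for cathelicidin and cystatin neighbours, 0.08 for liver, 1.05 for thymus and 0.37 for bone and cartilage. Set against wild type, where 1.41% of all genes passed and 0.971% fell, p63-/-;Cdx2 had 2 calls in these lists: Anxa1 fell by 2.05 (limma adjusted p = 0.0117) and Alox15, an eosinophil lipoxygenase that epithelia also make, fell by 1.90 (limma adjusted p = 0.0447). No gene of these lists passed between p63-/-;Cdx2 and p63-/-. There 1 of 28 secondary and tertiary granule genes had a higher mean in p63-/-;Cdx2, with a median difference of -0.54, and 43.8% of all genes were higher. This was not particular to granule genes: 1 of 19 macrophage genes (median -0.30) and 0 of 6 bone and cartilage genes (-0.82) were higher. Only the erythroid list (14 of 15 higher, median 0.47) and the thymus list (4 of 7, 0.005) had medians above 0. The median sample signal (log2) of the secondary and tertiary granule list was 11.46 in p63-/- replicate 1, with 9.94 and 9.65 on the other p63-/- arrays. It was 8.44 and 9.66 in p63-/-;Cdx2 and 9.39 to 9.54 in wild type.

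Signals of neighbouring tissues differed between arrays as well. Of the 6 bone and cartilage genes 4 (Ibsp, Bglap, Sp7 and Mmp13) were highest in p63-/- replicate 1, while the cartilage genes Col2a1 and Acan were highest in wild type replicate 3. The sample signal (log2) of Ibsp, bone sialoprotein, was 7.54 and 6.85 in p63-/-;Cdx2, 12.22, 6.62 and 6.68 in p63-/-, and 5.87 to 6.25 in wild type. The summed signal of the 6, in which Col2a1 is the brightest, was 13.22 and 14.31 in p63-/-;Cdx2, 15.44, 14.53 and 15.49 in p63-/-, and 13.65, 14.39, 16.62 and 15.49 in wild type. The p63-/- replicate with the high Ibsp had the highest Retnlg, a gene of mature neutrophils named after its values were seen, at 12.46, with 9.22 and 9.25 on the other p63-/- arrays and at most 9.69 in wild type. Thymus genes stood out in p63-/-;Cdx2 replicate 2, with a summed sample signal (log2) of 17.07, against 11.73 in replicate 1, 12.63 to 14.73 in p63-/- and 11.44 to 12.05 in wild type. Among wild type arrays replicate 3 had the highest sums of liver genes and of bone and cartilage genes. The liver sum was 20.12 and 19.64 in p63-/-;Cdx2, 19.61 to 20.07 in p63-/-, and 19.05, 17.78, 20.45 and 19.28 in wild type. In the sample channel the median liver gene difference from wild type was 0.93 in p63-/- and 0.96 in p63-/-;Cdx2, with none past the test. In log ratio these medians were 0.08 and 0.02. The log2 of the summed sample signal of the 7 granule genes was 12.77 and 12.80 in p63-/-;Cdx2, 13.14 to 13.99 in p63-/- and 10.87 to 13.33 in wild type, the highest wild type value again from replicate 3. The part of these tissues in the granule gene signals was not tested.

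S100a8, a calprotectin subunit abundant in neutrophils and named after its values were seen, was high on the same arrays as Camp and Ngp. Its sample signal (log2) was 11.53 and 13.001 in p63-/-;Cdx2, 14.41, 13.18 and 13.16 in p63-/-, and 10.64, 10.82, 13.02 and 11.12 in wild type. Wild type replicate 3 lay near p63-/- and p63-/- replicate 1 was highest. Its log2 ratios were 1.99 and 2.98 in p63-/-;Cdx2, 3.90, 3.23 and 3.19 in p63-/-, and 1.11, 1.31, 2.83 and 1.65 in wild type. Its log-ratio difference between p63-/- and wild type was 1.72. That of S100a9, of the same list, was -0.15 (2.03 in the sample channel), and that of Ltf -0.09 (1.38 in the sample channel). Of the 28 measured genes of the list 22 were higher in log ratio.

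**Figure D5:**
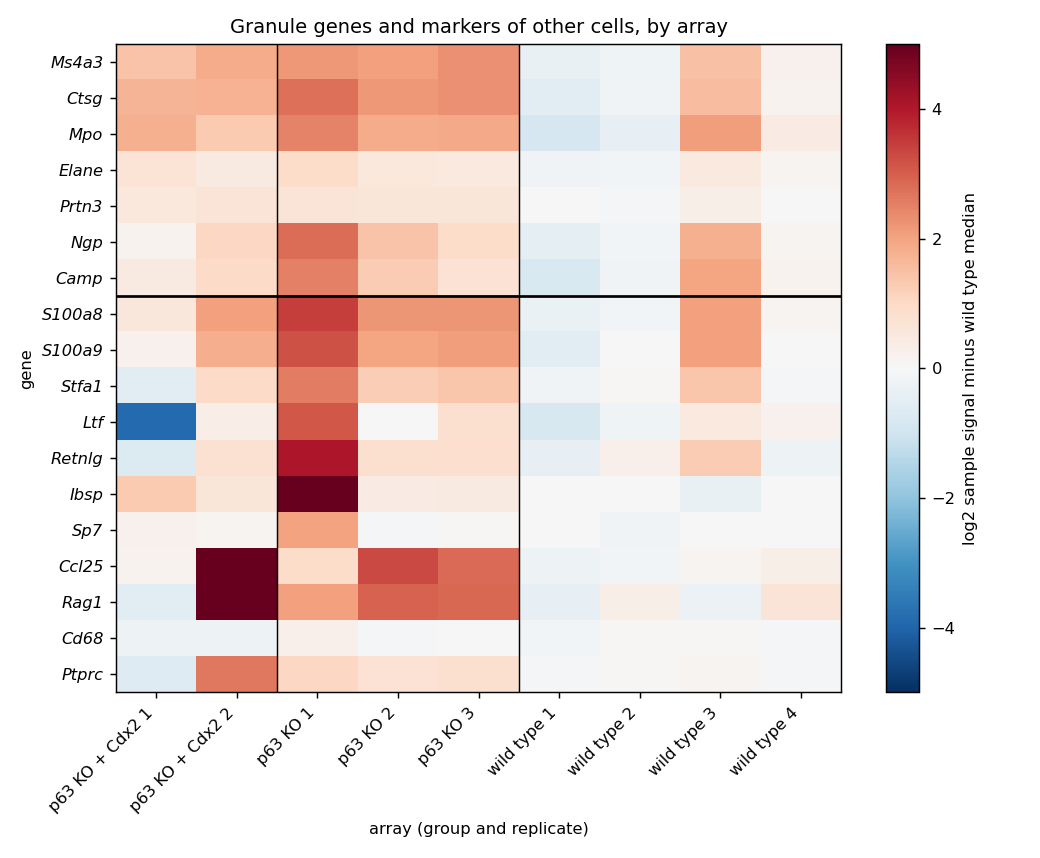
Log2 sample signal minus the wild type median (colour, ending at 5 above or below) of the 7 granule genes (above the line) and of marker genes chosen after their values were seen (below it), on the 9 arrays (x axis). Wild type replicate 3 and p63 KO (p63-/-) replicate 1 are raised for granule genes and S100a8, bone gene Ibsp is raised in p63 KO replicate 1, and thymus genes Ccl25 and Rag1 most in p63 KO + Cdx2 replicate 2.

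The genes most like the granule genes were sought over all genes, by Pearson's r over the 9 arrays with the mean of the standardized log ratios of the 7. The 10 highest r ran from 0.957 for Gosr1 to 0.920 for Smc5, with Trem2, a transcript given as ENSMUST00000026614, Slc14a1, Eif4g3, Fli1, Gm318, Nemf and Dnajc7 between them. The likeness is one of log ratios: in the sample channel the r of the same 10 genes ran from -0.713 for Gm318 to 0.849 for Slc14a1, with 0.336 for Nemf and 0.416 for Gosr1. The value is a description, since r this high is sought among 22655 genes over 9 arrays of 3 genotypes. Slc14a1, a urea transporter, had log2 ratios of 0.27 and -0.14 in p63-/-;Cdx2, 0.90, 0.72 and 0.52 in p63-/-, and -1.58, -1.92, -1.14 and -1.70 in wild type, with replicate 3 again the highest wild type array. Most of the others differed little between genotypes: Gosr1, a Golgi SNARE, differed by 0.17 between p63-/- and wild type, and Fli1, an ETS factor of blood and endothelium, by 0.45.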

How the data were processed

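Total RNA of 9 esophagus samples was hybridised to 2-colour Agilent arrays, sample in Cy5 and universal mouse reference RNA in Cy3, per the labels. Per the file headers, Agilent Feature Extraction 10.7.3.1 wrote the mean intensity of each spot and its local background in each channel, and a log10 ratio of Cy5 over Cy3 from processed intensities. The submitters' processing notes name version 9.1. The deposited value table of the authors holds log2 ratios that match the software's on every array (r = 1.00), with column medians of -0.212 to -0.0292; its centring is not stated.

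A file held 45018 spots, 1639 of them controls, and 119 to 171 flagged spots per array were left out. The sample signal of 30038 to 33249 probes per array passed the software's test against background, and the number of arrays limits the precision. Background was corrected by normexp (offset 50), ratios by loess within arrays, and the sample channel also by Aquantile. Probes well above background on at least 2 arrays were kept, with the brightest probe of each gene. Names came from RefSeq by accession (26918 probes) or symbol (5899), or from the files (8357). The model was fitted in limma 3.58.1 (R 4.3.3), with 3 genotypes over 9 arrays and Benjamini-Hochberg adjustment at 0.05, and the fit was checked on simulated data. Whether the samples come from separate animals is known only from the word biological in the labels.

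The members and gene lists were chosen with earlier results of these data known. Named are the members, up to 3 genes per list and direction that passed in any comparison by lowest adjusted p, or up to 2 with the lowest p where none passed, the 10 genes most like the members, Trp63, Cdx2 and Nnt, and, after their values were seen, Prss57, S100a8, Retnlg, Ms4a2 and the markers of the heat map. Krt14 is from the squamous epithelium list, and Il3ra is named for its call in the sample channel. Alternatives changed the background correction, offset, normalization, scaling, quantity, dim probe filter, probe summary, variance prior, samples and covariates. Replicate numbers did not pair samples: correlations of same-numbered deviations ran from -0.13 to 0.19.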

Additional observations from a re-analysis of the deposited data

How the results depend on the processing

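Called genes moved most between settings. Between p63-/- and wild type 74 genes were called, and 133 with the scanner software's signals or the authors' table, 47 with offset 0, 399 in the sample channel and 115 with only the 2 groups fitted. For p63-/-;Cdx2 against wild type 319 were called, and 113 with offset 0, 163 with median centring, 95 with scaled log ratios, 550 in the sample channel, 541 with a trended prior, 50 with only the 2 groups and 129 with sex as a covariate. The comparison of p63-/-;Cdx2 with p63-/- had 0 calls (2587 at an unadjusted p under 0.05), and 4 with the software's signals or the authors' table, 53 in the sample channel and 1 with a trended prior. With 1 array left out these counts ran from 21 to 121, from 58 to 369 (455 without the pair of arrays named at the end) and from 0 to 36.

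Of blood and tissue list genes 3 were called between p63-/- and wild type, and 0 with offset 0, 6 in the sample channel, 5 with the mean of a gene's probes and 11 with only the 2 groups (0 to 11 with 1 array left out). In p63-/-;Cdx2 against wild type 2 were called, and 1 with offset 0, with the filter on all 9 arrays, with only the 2 groups or with sex, and 4 with a trended prior (1 to 18). Between p63-/-;Cdx2 and p63-/- 0 were called, and 1 in the sample channel (0 to 3). None of the 7 granule genes was called there under any of the 23 alternatives (0 to 0 with 1 array left out).

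The median granule gene difference between p63-/- and wild type, 1.10, was 0.72 with the software's signals or the authors' table and 0.39 with scaled log ratios, and 0.76 to 1.28 with 1 array left out. Between p63-/-;Cdx2 and wild type, 0.58, it was 0.93 with offset 0 and 0.50 to 0.69. Signs turned for Ngp between p63-/- and wild type with the software's signals or the authors' table (-0.22). Between p63-/-;Cdx2 and wild type they turned for Ngp and Camp with those signals (-0.38 and -0.014) and with scaled log ratios (-0.19 and -0.093). Elane turned between p63-/-;Cdx2 and p63-/- with the software's signals or the authors' table (0.66), offset 0 (0.15) and scaling (0.0028), and Prtn3 with median centring (-0.024), the sample channel (-0.045) and sex (-0.0089). With 1 array left out Elane ran from -0.14 to 0.12 and Prtn3 from -0.028 to 0.072. The causes were not tested.

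Without p63-/- replicate 1 and wild type replicate 3 together, an alternative chosen after seeing the data, Elane and Prtn3 were 0.12 and -0.024 between p63-/-;Cdx2 and p63-/-, and list genes called were 0 between p63-/- and wild type and 4 between p63-/-;Cdx2 and wild type. With the replicate number as a block, although the numbers did not pair the samples, 9 and 8 genes (0 and 0 of the lists) were called for p63-/- and for p63-/-;Cdx2 against wild type, and the median granule gene difference was 1.24 and 0.67. It changed no other call. Dim signal limits Elane and Prtn3, whose wild type spots were partly at background.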
